A study of Homo sapiens with 13 samples.

Results

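The genes described here encode the condensin complexes and type II DNA topoisomerases of T98G, an established human glioblastoma cell line. The 10 genes are SMC2, SMC4, NCAPD2, NCAPG, NCAPH, NCAPD3, NCAPG2, NCAPH2, TOP2A and TOP2B. Their regulatory regions were taken from a table of ATAC-seq peaks on hg19, as every peak that overlaps a gene body extended by 5 kb on each side, with gene positions from GENCODE release 44 lifted to GRCh37. This gave 31 of the 129347 peaks of the table, of which 13 overlap a transcription start site (TSS) of any annotated transcript and 18 do not. In ATAC-seq, the Tn5 transposase cuts and tags accessible DNA, and the read count of a region rises with its accessibility. G1 cells (3 libraries) had been kept without serum for 72 h. M-phase cells (3 libraries) had been kept without serum for 48 h, given serum for 36 h with nocodazole, an inhibitor of microtubule assembly that arrests mitosis, and collected by shake-off. All libraries come from the same untransfected line, and no label says that replicates were separate cultures, so p-values measure the spread between these libraries, which may be technical. Effects of serum, of nocodazole and of mitosis cannot be told apart in this design, nor can the sequencing platform, since only M-phase replicates have a NextSeq run.

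Condensins are ring-shaped ATPases that extrude loops of DNA and compact mitotic chromosomes. SMC2 and SMC4 form the ATPase core of both complexes. Condensin I adds the kleisin NCAPH and the HEAT-repeat subunits NCAPD2 and NCAPG, and reaches chromosomes after the nuclear envelope breaks down, whereas condensin II adds NCAPH2, NCAPD3 and NCAPG2 and is nuclear already in interphase. Topoisomerase II passes one DNA duplex through another and so disentangles sister chromatids. TOP2A is the form of proliferating cells and a component of the mitotic chromosome axis, while TOP2B is also made in cells that have stopped dividing. The comparison asks how open the regulatory regions of these genes were in mitotic chromatin, where their products act.

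Promoter sequence upstream of the annotated start is shown for the topoisomerases and for the condensin genes with the highest and the lowest change, NCAPH2 and SMC2. Capitals mark a CCAAT box, the site of the factor NF-Y (CCAAT, or ATTGG where it lies on the opposite strand), or a cell cycle genes homology region, CHR, the site through which the DREAM complex silences cell cycle genes in resting cells (TTTGAA, or TTCAAA on the opposite strand). The sequences are read 5′ to 3′ on the strand of the gene from GRCh37, and annotated exons were left out.
TOP2A, minus strand, chr17:38574149-38574398: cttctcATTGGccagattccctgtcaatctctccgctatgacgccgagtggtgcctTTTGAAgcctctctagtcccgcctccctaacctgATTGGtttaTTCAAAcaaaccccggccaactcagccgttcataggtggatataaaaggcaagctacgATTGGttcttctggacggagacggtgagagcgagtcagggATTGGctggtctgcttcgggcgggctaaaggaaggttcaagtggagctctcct
TOP2B, minus strand, chr3:25706431-25706648: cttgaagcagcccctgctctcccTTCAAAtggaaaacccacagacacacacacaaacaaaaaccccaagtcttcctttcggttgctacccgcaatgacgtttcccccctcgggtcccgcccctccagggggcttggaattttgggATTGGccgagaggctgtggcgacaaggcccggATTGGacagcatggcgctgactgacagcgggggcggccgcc
NCAPH2, plus strand, chr22:50946403-50946652: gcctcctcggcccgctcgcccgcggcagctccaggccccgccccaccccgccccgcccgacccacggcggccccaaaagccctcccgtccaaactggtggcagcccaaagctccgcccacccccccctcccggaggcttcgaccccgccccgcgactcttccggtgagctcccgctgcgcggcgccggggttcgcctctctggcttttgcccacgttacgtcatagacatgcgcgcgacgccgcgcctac
SMC2, plus strand, chr9:106856340-106856540: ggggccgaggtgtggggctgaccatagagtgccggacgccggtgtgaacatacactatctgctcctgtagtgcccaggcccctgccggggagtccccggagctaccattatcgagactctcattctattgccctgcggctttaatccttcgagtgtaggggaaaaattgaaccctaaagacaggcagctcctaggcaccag

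The TOP2A promoter holds 4 CCAAT boxes, all on the strand opposite to the gene, with first bases at -244, -160, -93 and -53 from the start of the canonical transcript, and 2 CHR matches at -194 and -151. The NCAPD2 promoter also holds 4 CCAAT boxes on the opposite strand, at -199, -170, -70 and -30, with a CHR match at -145. In windows from 250 bases before to 50 bases after the start, 5 of the 10 genes had at least 1 CCAAT box, against 36.0% of 19881 protein-coding promoters. A CHR match was found at 8 of the 10 genes, against 11.4% of all protein-coding promoters, and was missing from the windows of NCAPH and NCAPH2. The SMC2 match begins at -3 from the start, outside the stretch printed above. An E2F site (TTTCCCGC, TTTGGCGC, TTTCGCGC or TTTGCCGC on either strand) was found only at NCAPD3 among the 10, against 4.37% of all. Matches of different motifs did not overlap at the 10 genes, and they describe letters in a window, not bound sites.

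The authors counted reads in each peak and scaled the counts of every library down to the smallest library, and these scaled read counts are the level used throughout. The G1 libraries held 4191845 to 5092426 scaled reads in peaks, and the M-phase libraries 5475345 to 6000423. From the steps between low values, a single read is worth an estimated 0.781 to 1.0 in the G1 columns and 0.412 to 0.481 in the M-phase columns, although the steps were less regular in M-phase replicates 1 and 2. By that estimate a given scaled count rests on more reads, with less counting error, in M-phase. Changes are M-phase over G1 on the scale of log2(scaled read count + 8), tested with limma over the 73121 peaks with enough reads, with Benjamini-Hochberg adjustment. TSS peaks as a class were higher in M-phase, with a median log2 change of 0.39 over the 15500 tested, of which 43.2% were called higher and 5.94% called lower (adjusted p under 0.05). Each promoter of the condensin and topoisomerase genes is therefore also set beside this class. The median change of all peaks fell by 0.26 on the log2 scale when libraries were scaled to an equal total in peaks. A trended loess fit, which removes the mean change at each level of abundance, took the median of TSS peaks from 0.39 to 0.06.

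Of the 13 TSS peaks at the condensin and topoisomerase loci, all were tested, and 10 were higher and 1 lower in M-phase by limma, against the 43.2% and 5.94% of all TSS peaks. The main promoter of a gene is here its own TSS peak with the most reads. Among the 10 main promoters, 8 were higher and none was lower, with SMC2 and NCAPH not passing the test. At an unadjusted p under 0.05, 9 were higher and none lower, but the share of all TSS peaks at that threshold is not given here. The unadjusted counts given further below also have no such share beside them. Their median log2 change was 0.84. In 7 of the 10, all 3 M-phase libraries lay above all 3 G1 libraries, as they did in 48.5% of TSS peaks tested, and in none were all M-phase libraries below, as in 8.7%. The count depends on how libraries are scaled, since the loess fit left 3 main promoters higher (NCAPH2, NCAPD2 and TOP2A) and 2 lower (SMC2 and NCAPG2), against 21.3% and 17.1% of TSS peaks under that fit. Equal totals in peaks left 6 higher and 1 lower, against 29.4% and 17.2%. In 7 of the 10 main promoters, G1 replicate 3 had the highest count of the G1 libraries. It also had the largest total in peaks among them, 5092426 scaled reads. Without it 11 of the 13 TSS peaks were higher, and the median log2 change of all TSS peaks was 0.48 instead of 0.39. The shares of all TSS peaks beside these counts are not given here, so they are not read as a trait of these genes.

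**Figure D1:**
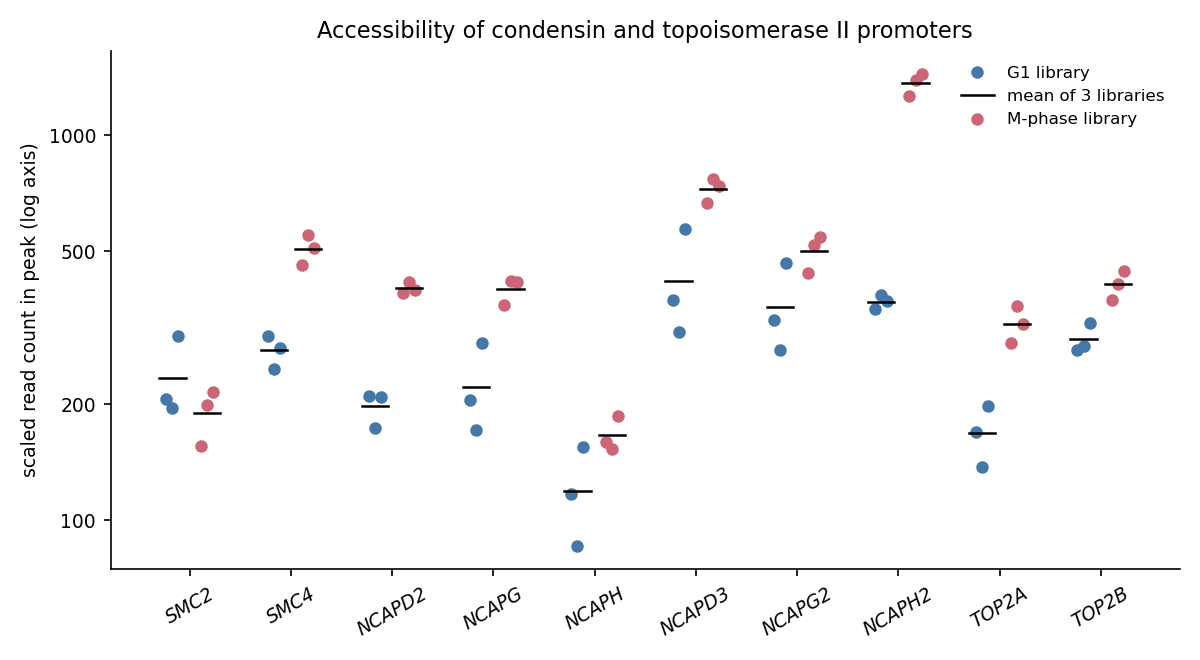
Scaled read count (log axis) in the main promoter peak of each gene, with a point for each G1 and M-phase library and a bar for the mean of 3 libraries. NCAPH2 stands apart in M-phase at 1364, SMC2 is the only gene with a lower mean in M-phase in the values as deposited, and libraries of the phases overlap at SMC2, NCAPH and NCAPG2.

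The ATPase core genes SMC2 and SMC4 did not move together. The SMC2 promoter peak (chr9:106855615-106857309, around its start) had scaled read counts of 206.8, 195.3 and 301 in G1 and 156.5, 199.0 and 215.6 in M-phase. The libraries of the phases overlap, and the log2 change of -0.28 (95% interval -0.65 to 0.1, limma adjusted p = 0.302) did not pass the test. It was -0.09 without G1 replicate 3 (limma adjusted p = 0.781) and -0.15 without M-phase replicate 1 (limma adjusted p = 0.695). Relative to the median of TSS peaks it was -0.66, and 13.9% of these had a smaller value. Under equal totals SMC2 was called lower, at -0.62 (limma adjusted p = 0.000796), as it was with the loess fit, at -0.79 (limma adjusted p = 1.84e-05). The SMC4 promoter peak (chr3:160116705-160118825), which it shares with IFT80, a gene of ciliary transport, had 301.2, 247.7 and 280 in G1 and 461.4, 549.2 and 508.6 in M-phase. Every M-phase library was above every G1 library, and SMC4 rose by a log2 change of 0.86 (SE 0.17, limma adjusted p = 2.71e-05), a call that was lost under the loess fit (0.1, limma adjusted p = 0.552).

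Of the condensin I genes, NCAPD2 and NCAPG rose, and NCAPH did not pass the test. NCAPD2 encodes a HEAT-repeat subunit that binds DNA, and its promoter peak (chr12:6602044-6603532) covers also the start of MRPL51, a mitochondrial ribosomal protein. It had 210.8, 174.2 and 209 in G1 and 389.7, 417.0 and 395.5 in M-phase, with no overlap, a log2 change of 0.99 (SE 0.17, limma adjusted p = 3.49e-06). The other HEAT-repeat gene, NCAPG, shares its peak (chr4:17811777-17813204) with DCAF16, a substrate receptor of a ubiquitin ligase, and had 205.8, 171.9 and 288 in G1 and 362.9, 418.2 and 416.7 in M-phase. NCAPG rose by a log2 change of 0.85 (SE 0.18, limma adjusted p = 8.68e-05), again with no overlap, but not under the loess fit (0.2, limma adjusted p = 0.269). NCAPH, the kleisin that closes the ring, had the weakest of the 10 main promoters in G1. Its peak (chr2:97001067-97002250) had 117.3, 85.9 and 155 in G1 and 159.4, 153.3 and 186.7 in M-phase, so that a G1 and an M-phase library overlap. The log2 change of NCAPH was 0.48 (95% interval 0.08 to 0.89, limma adjusted p = 0.0645), and it rested on single G1 libraries, being 0.68 without G1 replicate 3 (limma adjusted p = 0.0023) and 0.28 without G1 replicate 2 (limma adjusted p = 0.364).

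Of the condensin II genes, NCAPH2 rose the most among the 10 main promoters. NCAPH2 encodes the kleisin of condensin II, and its peak (chr22:50945410-50947345) spans also the start of LMF2, a gene of lipase maturation that runs the other way. It had 353.9, 384.4 and 371 in G1 and 1266.3, 1387.3 and 1438.3 in M-phase, and every M-phase library was far above the G1 libraries. NCAPH2 rose by a log2 change of 1.86 (SE 0.15, limma adjusted p = 9.8e-18), a 3.63-fold increase and more than in 99.7% of TSS peaks. It was called higher under every scaling, with 1.51 under equal totals and 0.85 under the loess fit (limma adjusted p = 1.81e-11). The next peak of that locus, at the starts of SCO2 and TYMP, a copper chaperone of mitochondria and thymidine phosphorylase, lies within 5 kb of the end of NCAPH2 (chr22:50963542-50965509). It had 440.4, 497.7 and 560 in G1 and 1214.0, 1356.8 and 1337.7 in M-phase, and rose by 1.37 (limma adjusted p = 2.59e-12), so both peaks of this short gene-dense stretch were higher in mitotic cells.

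NCAPD3 and NCAPG2, the HEAT-repeat genes of condensin II, rose less, and in each the direction flipped under the loess fit, to -0.07 at NCAPD3 (limma adjusted p = 0.679) and to -0.3 at NCAPG2 (limma adjusted p = 0.0425). The NCAPD3 peak (chr11:134093483-134095589), shared with VPS26B, a subunit of the retromer, had 373.8, 307.8 and 570 in G1 and 668.6, 771.3 and 737.2 in M-phase. The groups do not overlap, and the log2 change was 0.83 (SE 0.17, limma adjusted p = 3.94e-05). The main NCAPG2 peak (chr7:158496616-158498162) had 332.1, 276.6 and 466 in G1 and 438.7, 519.6 and 544.2 in M-phase. G1 replicate 3 lies above M-phase replicate 1 there, and the log2 change of 0.5 (SE 0.17, limma adjusted p = 0.0189) lost its call under equal totals, where it was 0.15 (limma adjusted p = 0.356), without G1 replicate 1 (adjusted p = 0.0858), without G1 replicate 2 (0.123), without M-phase replicate 2 (0.102) and without M-phase replicate 3 (0.127).

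TOP2A rose at its promoter. Its peak (chr17:38573421-38574766), the only one within 5 kb of the gene, had 170.0, 137.5 and 198 in G1 and 289.2, 359.7 and 322.9 in M-phase, and the groups do not overlap. The log2 change was 0.92 (SE 0.18, limma adjusted p = 3.67e-05), above that of 81.6% of TSS peaks, and TOP2A was called higher under each scaling (0.36 under the loess fit, limma adjusted p = 0.0448). The TOP2B promoter peak (chr3:25705146-25707000), which contains also the microRNA gene MIR4442, had 277.4, 283.6 and 326 in G1 and 373.2, 411.2 and 445.1 in M-phase. These groups do not overlap either, and the log2 change was 0.46 (SE 0.17, limma adjusted p = 0.0316), 0.07 above the median of TSS peaks. The TOP2B rise was near the threshold, since it was lost with a trimmed mean of M values scaling (adjusted p = 0.0753), with equal totals (0.524), without G1 replicate 1 (0.131), without M-phase replicate 2 (0.124) and without M-phase replicate 3 (0.167), and its direction flipped under the loess fit (-0.26, limma adjusted p = 0.0956).

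**Figure D2:**
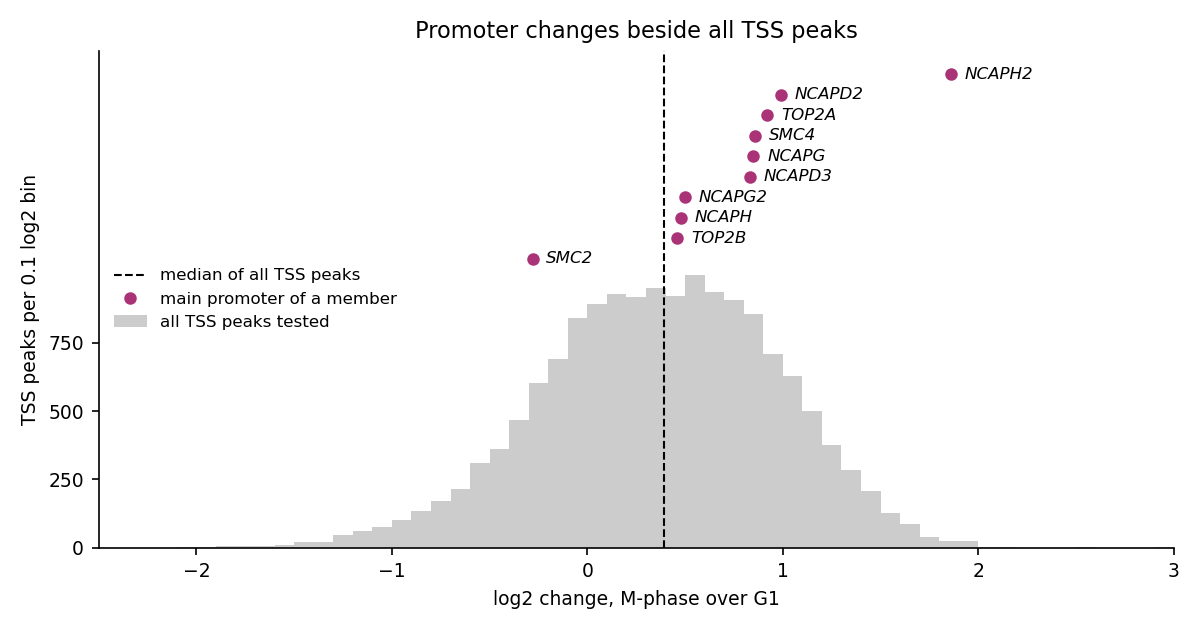
Histogram of the log2 change, M-phase over G1, of all 15500 TSS peaks tested, in bins of 0.1, with the 10 main promoters marked above it and the median of TSS peaks (0.39) as a dashed line. NCAPH2 lies in the upper tail at 1.86, SMC2 lies below the median at -0.28, and TOP2B, NCAPH and NCAPG2 lie close to the median.

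**Figure D3:**
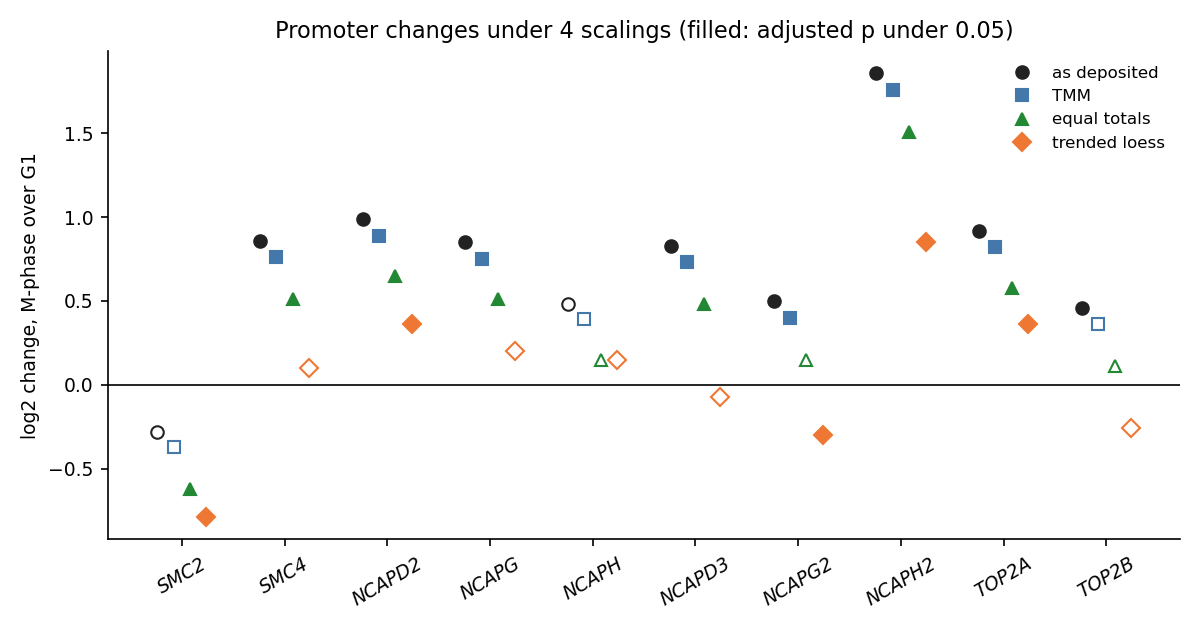
Log2 change, M-phase over G1, of the 10 main promoters with the values as deposited and under 3 other scalings, with filled symbols where the adjusted p from limma was under 0.05. NCAPH2, NCAPD2 and TOP2A stay above 0 and filled under all of them, SMC2 stays below 0, and NCAPD3, NCAPG2 and TOP2B fall below 0 under the trended loess fit.

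Since scaling a whole library leaves the ratio of promoters within it almost as it is, each gene was also set against its counterpart. The loess fit depends on abundance and does alter such ratios. The log2 ratio of the TOP2A to the TOP2B promoter was -0.68, -1.0 and -0.7 in the G1 libraries and -0.36, -0.19 and -0.45 in the M-phase libraries, so TOP2A was the smaller peak in every library and the gap was smaller in M-phase. The difference of 0.46 between the phases had a two-sided exact permutation p of 0.1, the smallest that 3 libraries against 3 can give. Under the loess fit the difference was 0.62. The other 4 pairs were set up after their values had been seen. SMC4 over SMC2 was 0.53, 0.33 and -0.1 in G1 and 1.51, 1.43 and 1.21 in M-phase, a mean log2 ratio of 0.25 ± 0.32 against 1.38 ± 0.16 (SD, n = 3). SMC4 was the larger peak in every M-phase library and in all G1 libraries but replicate 3. NCAPH over NCAPH2 was -1.53, -2.06 and -1.22 in G1 and -2.93, -3.11 and -2.89 in M-phase, or -1.6 ± 0.43 against -2.98 ± 0.12 (SD, n = 3). Under the loess fit the log2 changes of NCAPH and NCAPH2 were 0.15 and 0.85, closer together than the 0.48 and 1.86 as deposited. For NCAPG over NCAPG2 the ratio was -0.67 ± 0.01 in G1 and -0.32 ± 0.06 in M-phase (SD, n = 3). In these 4 pairs, TOP2A over TOP2B included, the groups do not overlap and each exact permutation p was 0.1, or 0.125 adjusted over 5 pairs, which cannot fall under 0.05 in this design. NCAPD2 over NCAPD3 was -1.0 ± 0.36 in G1 and -0.84 ± 0.07 in M-phase (SD, n = 3), with overlapping groups (exact permutation p = 0.8).

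**Figure D4:**
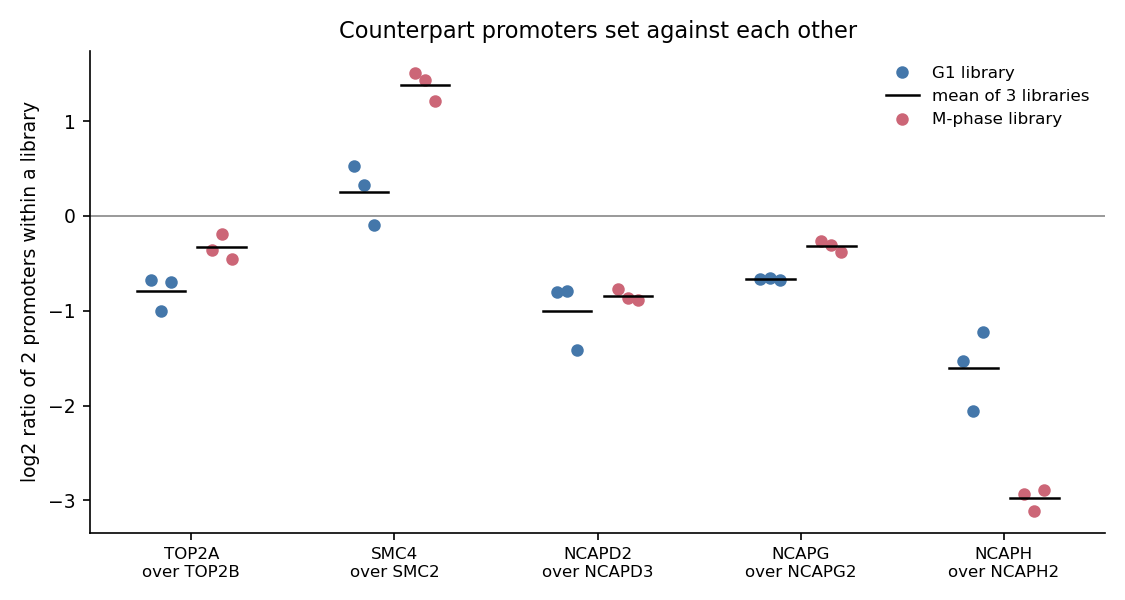
Log2 ratio of a promoter peak to that of its counterpart within each library, with a point for each of 3 G1 and 3 M-phase libraries and bars for the means. The phases separate for TOP2A over TOP2B, SMC4 over SMC2, NCAPG over NCAPG2 and NCAPH over NCAPH2, and overlap for NCAPD2 over NCAPD3.

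Set per length, the G1 level of the main promoters ran from 100.8 ± 29.2 scaled reads per kb of peak at NCAPH to 231.6 ± 62.9 at NCAPG2 (SD, n = 3). From NCAPH the order in G1 went through TOP2A (125.2 ± 22.5), SMC4 (130.3 ± 12.7), NCAPD2 (133.0 ± 13.9), SMC2 (138.3 ± 34.2), NCAPG (155.4 ± 41.8), TOP2B (159.4 ± 14.3), NCAPH2 (191.0 ± 7.9) and NCAPD3 (198.0 ± 64.7), all as mean scaled reads per kb and SD of 3 libraries. Neighbours in this order lie within their spread, with the exception of NCAPH2 over TOP2B, where the mean levels differ by more than the sum of both SDs. In M-phase SMC2 was lowest at 112.3 ± 18.0 scaled reads per kb, followed by NCAPH (140.6 ± 15), TOP2B (220.9 ± 19.4), SMC4 (238.8 ± 20.7), TOP2A (240.7 ± 26.2), NCAPD2 (269.1 ± 9.66), NCAPG (279.6 ± 22.1), NCAPG2 (323.7 ± 35.7), NCAPD3 (344.4 ± 24.8) and NCAPH2 (704.5 ± 45.6, SD, n = 3). By the same measure only the steps from NCAPH to TOP2B and from NCAPD3 to NCAPH2 were larger than the spread. The place of NCAPH2 thus changed from the third highest level to the highest. SMC2 went from the middle to the lowest place, but SMC2 and NCAPH lay within their spread in both phases.

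The promoters of 5 of the 10 genes, SMC4, NCAPD2, NCAPG, NCAPD3 and NCAPH2, share a peak with another protein-coding gene on the opposite strand. The canonical starts lie 425 bases apart at SMC4 and IFT80, 840 at NCAPD2 and MRPL51, 222 at NCAPG and DCAF16, 704 at NCAPD3 and VPS26B, and 522 at NCAPH2 and LMF2. All 5 shared peaks were called higher, with log2 changes from 0.83 to 1.86, while under the loess fit SMC4 and NCAPG lost their call and NCAPD3 turned to -0.07. Reads in a shared peak cannot be assigned to either gene. Across the table, 63.9% of TSS peaks with starts of at least 2 protein-coding genes were higher, against 44.4% of those with 1, and their median log2 changes were 0.65 and 0.4. The 5 promoters with a single protein-coding gene had changes from -0.28 to 0.92, and 3 of them, TOP2A, TOP2B and NCAPG2, were called. In base composition the main promoters resembled TSS peaks, with a median GC content of 60.0% against 62.5% and a median observed over expected CpG ratio of 0.79 against 0.73. They held more reads, with a median scaled read count of 332 against 143. However, each was picked as the own TSS peak of its gene with the most reads. They were also wider, with a median of 1621 bp against 1152 bp.

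Away from the main promoters, TSS peaks moved both ways. A peak inside NCAPG2 (chr7:158460074-158461062), 36.93 kb into the gene at the start of a transcript without a defined coding sequence, had 132.2, 213.3 and 97 in G1 and 79.1, 64.7 and 102.5 in M-phase. It fell by 0.74 on the log2 scale (SE 0.22, limma adjusted p = 0.00652), lower than all but 3.88% of TSS peaks. G1 replicate 3 overlaps the M-phase libraries there, and the call was lost without G1 replicate 2 (-0.45, adjusted p = 0.172) and without M-phase replicate 2 (-0.6, limma adjusted p = 0.074). The main promoter of NCAPG2 over this internal start had log2 ratios of 1.28, 0.36 and 2.17 in G1 and 2.36, 2.86 and 2.32 in M-phase, which do not overlap (exact permutation p = 0.1). That ratio was set up after the values had been seen. It sets a peak called higher over one called lower in the same libraries, so it is no separate support for either call. The remaining TSS peak near a condensin gene belongs to GAPDH (chr12:6641769-6644824), the glycolytic enzyme whose gene begins just after the end of NCAPD2. It had 613.4, 571.1 and 667 in G1 and 1287.4, 1419.9 and 1527.3 in M-phase and rose by a log2 change of 1.18 (limma adjusted p = 2.15e-10), which the loess fit reduced to 0.07 (limma adjusted p = 0.573).

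Of the 18 peaks without a TSS, NCAPG2 holds 9, NCAPD3 5, TOP2B 2 and SMC2 2, while the loci of SMC4, NCAPD2, NCAPG, NCAPH, NCAPH2 and TOP2A hold none. Of these 18, 8 had enough reads to be tested, beside 57621 of the 113216 peaks without a TSS in the whole table. The strongest of them, in NCAPD3, had a higher mean count than 90.6% of peaks without a TSS. None of these was higher in M-phase by limma, also at an unadjusted p under 0.05, and 1 was lower, against 6.51% and 15% of all tested peaks without a TSS. Their median log2 change was -0.06, against -0.05 for all such peaks. The one called was in an intron of TOP2B, 60.77 kb downstream of the start (chr3:25645416-25645831). It had 20.9, 10.9 and 25 in G1 and 7.8, 2.1 and 11.1 in M-phase, with a small overlap between the phases, and fell by 0.85 on the log2 scale (SE 0.29, limma adjusted p = 0.0201). At this low depth the call was lost without G1 replicate 1 (adjusted p = 0.077), without G1 replicate 3 (0.124) and without M-phase replicate 2 (0.204).

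The strongest peak without a TSS lies in an intron of NCAPD3, 58.3 kb into the gene (chr11:134034822-134036301). It had 54.7, 50 and 43 in G1 and 30.1, 37.1 and 36.1 in M-phase, and although all M-phase libraries were below all G1 libraries, as in 21.3% of tested peaks without a TSS, the log2 change of -0.43 (95% interval -0.93 to 0.07, limma adjusted p = 0.21) did not pass the test. Under equal totals it was -0.73 and passed (limma adjusted p = 0.0147). The strongest such peak of NCAPG2 overlaps an exon (chr7:158488656-158488890), with 13.9, 21.1 and 16 in G1 and 12.4, 9.5 and 18.3 in M-phase, and its log2 change was -0.23 (limma adjusted p = 0.604). At SMC2 the stronger of both intronic peaks (chr9:106868149-106868328) had 6.0, 1.6 and 1 in G1 and 10.7, 8.2 and 2.9 in M-phase and was too weak to be tested. Across the 10 peaks that were not tested, library values ran from 0.0 to 16.5, and the phases overlap at 7 of them. A peak downstream of NCAPD3 (chr11:134019021-134019288) had 7.0, 6.3 and 7 in G1 and 16.5, 13.6 and 10.6 in M-phase, and an intronic one (chr11:134037060-134037438) had 8.0, 7.0 and 10.0 in G1 and 2.1, 5.8 and 1.4 in M-phase. The phases separated at both, in opposite directions. They also separated at the weaker intronic peak of SMC2, which had 2.0, 1.6 and 0 in G1 and 3.7, 4.5 and 2.9 in M-phase. These values rest on few reads, and the share of untested peaks that separate across the table is not given here. The separations are therefore not read as changes. With no filter on low counts all 18 peaks were tested, and 0 were higher and 1 lower by limma. The ratio of the promoter to the strongest peak without a TSS was taken at TOP2B and NCAPD3, after the values had been seen. At NCAPG2 the internal start was used instead. The log2 ratio was 3.53 ± 0.36 in G1 and 4.85 ± 0.46 in M-phase at TOP2B, where the intronic peak is the one called lower. The TOP2B promoter was called higher in the same libraries, so this ratio is no separate support for either call. At NCAPD3 the ratio was 2.85 ± 0.57 and 4.11 ± 0.04 (SD, n = 3, exact permutation p = 0.1 for each). The phases separated at both. The NCAPD3 ratio is likewise no separate support for the call of its promoter. Under the loess fit, promoter and intronic peak had log2 changes of -0.07 and -0.3 at NCAPD3, and of -0.26 and -0.81 at TOP2B. These lie closer together than the 0.83 and -0.43, and the 0.46 and -0.85, as deposited. Across the table the median log2 change was 0.39 at TSS peaks and -0.05 at other tested peaks. The share of loci where such a ratio rises is not given here.

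**Figure D5:**
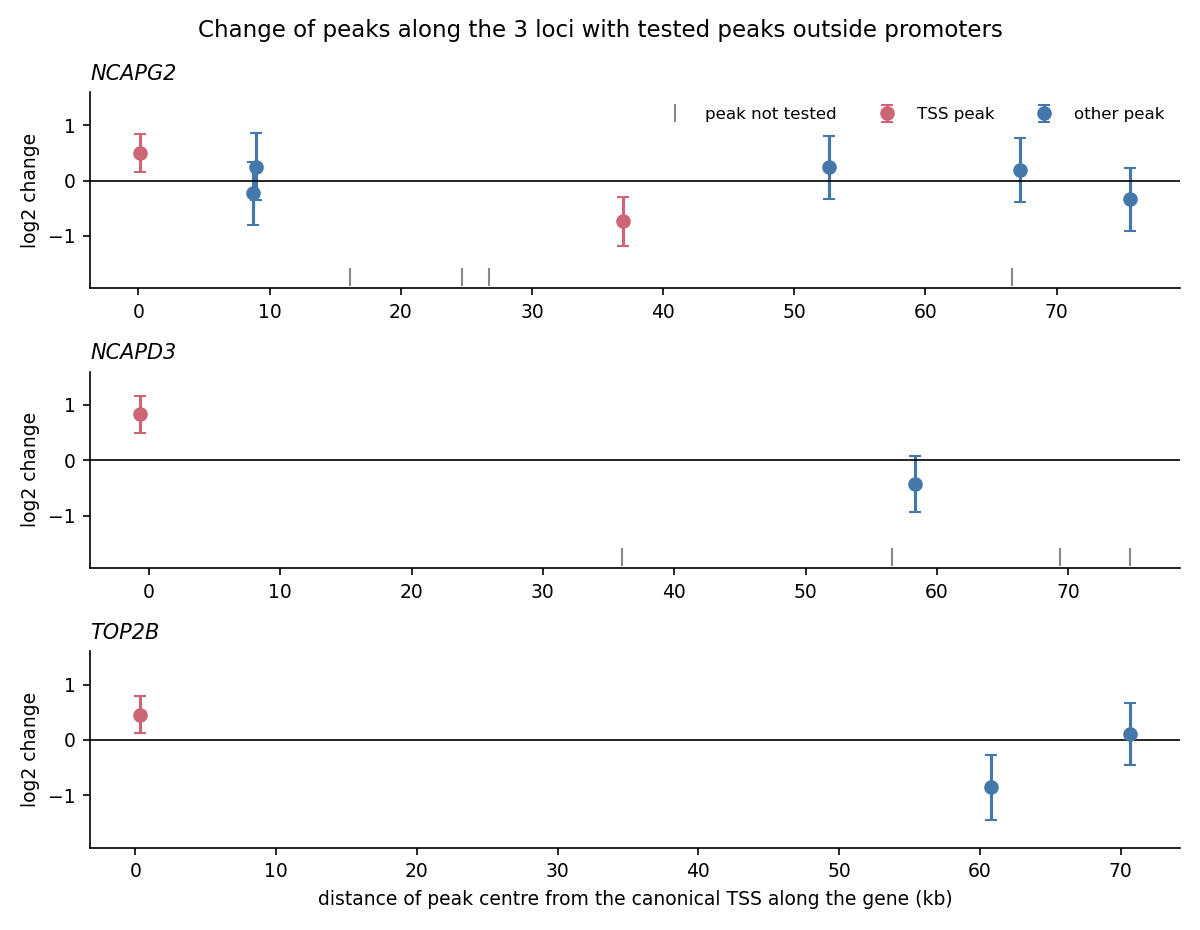
Log2 change, M-phase over G1, with its 95% interval, of the tested peaks at NCAPG2, NCAPD3 and TOP2B against the distance of the peak centre from the canonical start along the gene, in kb. TSS peaks are red, other peaks blue, and grey ticks mark peaks that were not tested. The promoters at distance 0 lie above 0, though under a trended loess fit all 3 fall below 0, and the internal start of NCAPG2 and the intronic peak of TOP2B lie below 0.

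Other genes of chromosome condensation were read at their own TSS peaks. Of 17 partners and regulators of condensin, all tested, 11 were higher and none lower in M-phase by limma, none also at an unadjusted p under 0.05, a share of 64.7% beside the 43.2% of TSS peaks, with a median log2 change of 0.62. AKAP8, an anchoring protein that recruits condensin to chromatin, rose from 248.0 ± 22.4 to 754.7 ± 71.85 (SD, n = 3), a log2 change of 1.57 (limma adjusted p = 5.01e-13). AURKB, the kinase of the chromosomal passenger complex, rose by 1.21 and CCNB2, a mitotic cyclin, by 1.14. These 3 promoters were called higher under each scaling. The promoters of PLK1 and of KIF4A, the chromokinesin of the chromosome axis, did not pass the test, with log2 changes of 0.15 (limma adjusted p = 0.639) and -0.37 (limma adjusted p = 0.206). The KIF4A peak also covers the start of PDZD11, and the AKAP8 peak that of an unnamed gene. The list was sensitive to scaling, with 6 higher and 2 lower under equal totals and 3 higher and 2 lower under the loess fit. TSS peaks had 29.4% higher and 17.2% lower under equal totals and 21.3% higher and 17.1% lower under the loess fit, so the share of the list above that of TSS peaks was not seen under the loess fit. KIF4A was lower under both, and CDCA8, a passenger complex subunit called higher at 0.44, turned to -0.38 (limma adjusted p = 0.006) under the loess fit. The CDCA8 peak also covers the start of C1orf109.

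Among 6 genes of other topoisomerases and of the repair of topoisomerase adducts, 3 were higher and none lower by limma, none also at an unadjusted p under 0.05. TOP1, which relaxes DNA through a single-strand break, rose from 374.6 ± 29.09 to 1043 ± 98.93 (SD, n = 3), a log2 change of 1.46 (limma adjusted p = 1.1e-12). TDP1, which frees DNA ends from trapped TOP1, rose by 0.96, and TOP3B, which acts on single strands of DNA and RNA, by 0.68, calls that were lost under the loess fit for TDP1 (0.27, limma adjusted p = 0.0986) and under equal totals for TOP3B (0.37, limma adjusted p = 0.207). TDP2, which removes trapped topoisomerase II, had a log2 change of -0.03 (limma adjusted p = 0.937) and was called lower under the loess fit (-0.52, limma adjusted p = 0.0061). The TDP1 peak also covers the start of EFCAB11, and the TDP2 peak that of ACOT13. Of 9 genes of the other SMC proteins and of the SMC5/6 complex, 5 were higher and none lower by limma, none also at an unadjusted p under 0.05, with a median log2 change of 0.68. SMCHD1, an SMC protein of the inactive X chromosome, rose by 1.66 (limma adjusted p = 1.04e-12), SMC6 by 1.47 and the cohesin subunit SMC3 by 0.95, while SMC5 had 0.07 (limma adjusted p = 0.838). SMCHD1, SMC6 and SMC3 were called higher under each scaling. The SMC6 peak also covers the start of GEN1, and the SMCHD1 peak that of CBX3P2. The share called higher in this list, 55.6%, and that of 3 in 6 among the other topoisomerases lie near the 43.2% of TSS peaks.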

How the data were processed

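ATAC-seq of G1 and M-phase T98G cells was analysed from the deposited table of peaks, while the 4 chromatin fraction and input samples were not used here. Per the methods and labels, the authors removed adapters with cutadapt, mapped reads to hg19 with Rbowtie (up to 3 locations allowed, 1 kept), discarded mitochondrial reads (SAMtools), and used MACS2 for broad peaks of the merged replicates. Tool versions and any Tn5 shift are not given in the sources used here. The signal in the deposited columns is the read count per peak, scaled by the authors to the smallest library and rounded to 0.1. How the HiSeq and NextSeq runs of an M-phase replicate were joined is not stated. The deposited log2 column and its SD, the authors' own comparison, were not used, and the number of other per-sample columns left out was 0.

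Tested peaks had a count of 10 or more, relative to a median-sized library, in at least 3 libraries and 15 or more over all 6. limma 3.58.1 in R 4.3.3 was fitted to log2(scaled count + 8) with a mean-variance trend and no covariates, and was tested on simulated data. Peaks were matched to GENCODE release 44 on GRCh37. Exact permutation tests, motif searches and figures used Python 3.11.15, numpy 2.4.6, pandas 2.3.3, pysam 0.24.0, statsmodels 0.14.6 and matplotlib 3.10.9. All 10 genes were named, with each main promoter, every other peak with an adjusted p under 0.05 and the strongest peak without a TSS of each gene. Of each list of other genes, up to 3 of the largest rises and falls past the threshold were named, and PLK1, KIF4A, CDCA8, TDP2 and SMC5 were chosen after their values were seen. The values of 1 listed gene are not reported here. The members, lists and tests were chosen with earlier results of these data known. Alternatives were other scalings (TMM, equal totals, trended loess), a pseudocount of 1, other filters, the replicate block, each replicate left out, loci without the extension and a TSS within 500 bp.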

Additional observations from a re-analysis of the deposited data

How the results depend on the processing

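The planned count test on whole reads was not run, because too few low values of M-phase replicates 1 and 2 lay on whole multiples of a single step, and the cause was not tested. Under equal totals in peaks, 2 TSS peaks and 2 other peaks at the condensin and topoisomerase loci were lower, and the list of condensation partners had 6 higher and 2 lower. Of all TSS peaks 17.2% were lower under that scaling, and the median log2 change of all peaks was -0.24. The share of all peaks without a TSS called lower under it is not given here. Under the trended loess fit, 4 TSS peaks were higher and 3 lower, the partners had 3 higher and 2 lower, 1 gene of the other topoisomerases was lower and 3 genes of the other SMC proteins were higher, and the main promoters of NCAPD3, NCAPG2 and TOP2B turned to -0.07, -0.3 and -0.26. With at least 10 in every library, 2 other peaks could be tested and 0 were lower. Leaving out each replicate in turn gave 8 to 11 TSS peaks higher and 0 to 1 lower, 0 to 1 other peaks lower, 8 to 11 partners, 2 to 4 topoisomerase genes and 5 to 6 SMC genes higher, and 0.36 to 0.52 for TOP2A minus TOP2B. Shares of all peaks are not given here for these fits, nor for the other filters and the replicate block. Replicate numbers were shared but did not pair the libraries, with correlations of the deviations from the phase means of 0.00594, -0.0101 and 0.0284. With the replicate block, 11 TSS peaks were higher and 1 lower, as NCAPH passed at an adjusted p of 0.0461 from limma. NCAPH also passed with at least 10 in every library (limma adjusted p = 0.0431). TOP2A minus TOP2B stayed at 0.46 with the block. Sign flips of the differences gave p = 0.25 there, against the exact permutation p of 0.1 without the block. Every count named above was otherwise within 1.5 times its reported value under TMM, a pseudocount of 1, no filter, loci without the extension and a TSS within 500 bp. Few reads in peaks outside promoters limited what could be detected there. The alternatives for the lists of other genes were added after seeing the data.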
